A study of Mus musculus with 8 samples.

Results

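The genes described here are 36 genes of protein folding and export in the endoplasmic reticulum (ER), fixed by name among the 28956 genes of the deposited single-cell tables of the mouse femur. They comprise 12 folding chaperones, 4 disulfide isomerases, 7 stress sensors and transcription factors, 6 components of the translocon, 5 genes of ER exit and retrieval, and 2 of ER-associated degradation. All 36 were present in the tables, and all 36 passed the filter on low counts in each of the 6 stromal cell classes tested. The cells were non-haematopoietic stromal cells of C57BL/6 females, all 12 weeks old at collection. The Fracture group came from femurs broken by bending at 10 weeks of age, held by an intramedullary nail and collected at day 14, and the Control group from unfractured wild-type females. Each group comprised 2 cell preparations with 2 droplet libraries each, and suspensions of both groups had been depleted of blood lineage, CD45 and CD117 cells. The sources used here do not say how many animals entered a preparation, so the tests within a class measure the spread between preparations, which may be technical. Levels are given as CPM, the UMIs (captured transcripts) of a gene per 1000000 UMIs of all cells of that class in a preparation.

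Secreted proteins enter the ER through the Sec61 channel, fold there with the help of chaperones and disulfide isomerases, and leave in COPII vesicles. When unfolded protein accumulates, the sensors IRE1 (Ern1), PERK and ATF6 start the unfolded protein response, which raises chaperones such as BiP (Hspa5) through XBP1 and ATF6 and the factors ATF4 and CHOP (Ddit3) through PERK. Chondrocytes and osteoblasts export collagen in bulk, which needs dedicated machinery: HSP47 (Serpinh1) as the collagen chaperone, prolyl hydroxylases with protein disulfide isomerase (P4hb) as their subunit, TANGO1 (Mia3) and SEC24D at ER exit sites, and the ER-bound factors OASIS (Creb3l1) and BBF2H7 (Creb3l2), which drive secretory genes in bone and cartilage.

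Promoter sequences are shown for 4 genes because the members with the binding elements of the unfolded protein response fall into different functional groups. RefSeq windows (GRCm38.p6), from 250 bases before to 50 bases after the transcription start, were matched for 29 of the 36 genes. The ER stress element, CCAAT and CCACG separated by 9 bases, was found on either strand in 7 of them (Calr, Canx, Creld2, Dnajc3, Hsp90b1, Hspa5 and Pdia6), against 0.119% of 32851 windows of all genes. A second form, ATTGG and CCACG separated by 1 base, was found in Dnajb11 and Herpud1, against 0.0365% of all windows. The UPR element TGACGTGG, which holds CCACG on its other strand, was found in 3 members, all of them genes of exit and retrieval and Kdelr3 and Sec24d among them, against 0.676% of all windows. A match is a description of the letters in the window and not a site shown to be bound. Stretches around these elements are printed 5′ to 3′ on the strand of the gene, with the fixed letters of each element in capitals.
Hspa5 (chr2:34771995-34772073, plus strand): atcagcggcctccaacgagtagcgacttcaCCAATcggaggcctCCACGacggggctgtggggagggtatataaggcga
Herpud1 (chr8:94386347-94386417, plus strand): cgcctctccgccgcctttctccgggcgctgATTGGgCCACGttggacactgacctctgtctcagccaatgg
Kdelr3 (chr15:79516348-79516407, plus strand): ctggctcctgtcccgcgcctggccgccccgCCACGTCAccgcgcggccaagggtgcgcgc
Sec24d (chr3:123267440-123267495, plus strand): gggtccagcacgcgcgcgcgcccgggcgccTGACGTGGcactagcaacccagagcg
The element lay 65 to 47 bases before the start in Hspa5, 52 to 42 in Herpud1, 30 to 23 in Kdelr3 (on the opposite strand) and 26 to 19 in Sec24d.

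The 8 libraries held 56543151 to 89126291 UMIs, and 45328 of 48903 barcodes were kept. The lowest total of a listed barcode was 1 to 3 UMIs in the Control and 1929 to 2724 UMIs in the Fracture libraries. Clusters were named from marker lists, with the 36 genes kept out of the clustering. The name BMSC (bone mesenchymal stromal cell) was weak in Fracture. The 7 BMSC markers summed to 26670.1 and 27805 CPM in the Control and to 1912 and 2254 CPM in the Fracture preparations of that class, and without integration of the libraries the class held 79 and 103 Fracture cells in place of 1001 and 1084. RNA of matrix-producing cells was also present in the other classes. Col2a1, the main collagen of cartilage, stood at 1515 and 649.6 CPM in Control and at 9681 and 9866 CPM in Fracture endothelial-like cells. Read from Col2a1 and Bglap of the same preparation, RNA like that of chondrocyte-like and osteoblast-like cells would supply 33.8% and 34.0% of the UMIs of the 36 genes in Fracture endothelial-like cells, against 7.21% and 4.30% in Control. In smooth muscle-like cells the shares were 24.9% and 11.3% against 10.3% and 1.67%, in fibroblast-like cells 15.0% and 12.6% against 3.75% and 5.97%, and in BMSC-like cells 5.77% and 4.98% against 2.42% and 1.59%. These are upper limits where a class makes Col2a1 or Bglap itself, and this calculation was added after the data were seen.

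The summed level of the 36 genes was higher in Fracture in every stromal class. In chondrocyte-like cells it was 13630.3 and 12311 CPM in Control and 14227 and 13882 CPM in Fracture. In osteoblast-like cells it was 12617 and 11398 CPM in Control and 16251 and 15479.9 CPM in Fracture, and in fibroblast-like cells 11873 and 10119.7 CPM in Control and 13215 and 12696 CPM in Fracture. Both Fracture preparations lay above both Control preparations in these 3 matrix-secreting classes, by a ratio of means of 1.08, 1.32 and 1.18. BMSC-like cells stood in the same range, at 12906 and 12059 CPM in Control and 14963 and 14289.6 CPM in Fracture, a ratio of 1.17, and with clusters made without integration the Fracture sum was the lower one (log2 ratio -0.38). Endothelial-like cells stood lower, at 7787 and 7849 CPM in Control and 8814 and 8352 CPM in Fracture. With the matrix-cell RNA taken off, their Fracture values of 7303 and 6872 CPM were below the Control values of 7543 and 7728 CPM. The widest gap was that of smooth muscle-like cells, 5324 and 4754 CPM in Control and 10356 and 10360.1 CPM in Fracture, a ratio of 2.06, and it was 4986 and 4703 against 9345 and 9993 CPM with that RNA taken off. The make-up of the chondrocyte-like class differed between the groups. It held 2069 and 676 cells in Control and 6796 and 7115 in Fracture. At a finer resolution of clustering, a cluster led by Serpina1a, which lay mostly in this class, held 718 and 219 cells in Control and 792 and 812 in Fracture. A cluster led by Col10a1, with a low level of the 36 genes, held 183 and 93 against 1629 and 1627. A cluster led by C1qtnf3, with a high level of them, held 227 and 82 against 1419 and 1480. A sum over cells cannot separate more RNA of these genes per cell from a change in which cells make up a class.

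**Figure D1:**
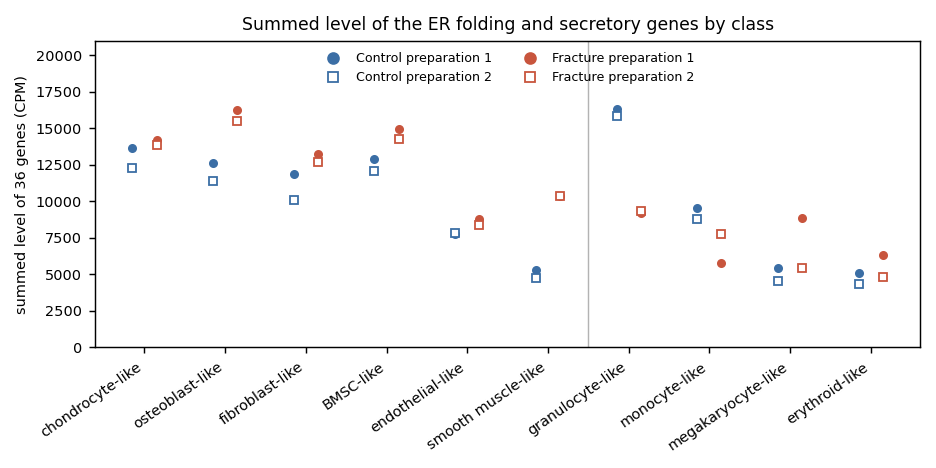
Summed level of the 36 genes in CPM (vertical axis) in each class (horizontal axis), with 1 point for each of the 4 cell preparations. The Fracture points lie above the Control points in the 6 stromal classes left of the line and below them in granulocyte-like and monocyte-like cells. The monocyte-like Fracture points rest on 11 and 12 cells.

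In chondrocyte-like cells the 7 chondrocyte markers summed to 77559.9 and 68839 against 82687 and 82616 CPM, the 7 osteoblast markers to 7556 and 9536 against 14067 and 14847 CPM and the 5 erythroid markers to 126 and 335 against 920.2 and 959 CPM. Of each of these lists 3 genes were higher in both Fracture preparations, as were 27.2% of the genes tested. The median share of mitochondrial UMIs there was 2.55% and 2.36% in Control against 1.79% and 1.82% in Fracture. In fibroblast-like cells the 7 fibroblast markers summed to 17500.5 and 18278 against 6273 and 6566 CPM, with 4 of the 7 higher in both Fracture preparations. The 7 BMSC markers summed to 2731 and 4549.6 against 248 and 262 CPM there, with 0 of the 7 higher. Of the genes tested, 26.5% were higher in both. The 4 glia markers summed to 498 and 784 against 2.80 and 4.25 CPM there and the 5 erythroid markers to 38.3 and 122 against 1121 and 1375 CPM. In osteoblast-like cells the 7 osteoblast markers summed to 105939 and 123100.0 against 45073 and 58316 CPM, with 3 of the 7 higher in both Fracture preparations, as were 38.4% of the genes tested. The median was 18524 and 20870.5 UMIs per cell in Control against 11160.5 and 12090 in Fracture. In BMSC-like cells the 7 chondrocyte markers summed to 532 and 265 against 2432 and 2637 CPM, with 7 of the 7 higher in both Fracture preparations. The 6 smooth muscle markers summed to 262 and 203 against 1365 and 1096 CPM, with 3 of the 6 higher, where 30.3% of the genes tested were. The part of these in the change of the 36 genes was not tested.

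The plot of summed levels also shows blood classes that remained after depletion. Granulocyte-like cells stood at 16357 and 15825 CPM in Control and 9174 and 9345 CPM in Fracture, where they were 1942 and 817 and 84 and 77 cells, and erythroid-like cells at 5075 and 4334 CPM in Control and 6354 and 4832 CPM in Fracture. Over all cells together the sum was 11956 and 9557 CPM in Control and 13859 and 13359 CPM in Fracture, a ratio of 1.27, and with each class held at its mean share of the UMIs the ratio was 1.11. Chondrocyte-like cells supplied 23.2% and 13.0% of the UMIs in Control and 63.1% and 62.1% in Fracture.

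Gene by gene, the change was uneven. In chondrocyte-like cells 18 of the 36 genes rose and 1 fell (adjusted p under 0.05 in edgeR's quasi-likelihood test), where 19.3% of the 17286 genes tested rose and 18.0% fell. In osteoblast-like cells 12 rose and 2 fell, against 9.61% and 6.52% of all genes, and in fibroblast-like cells 9 rose and 3 fell, against 9.87% and 9.72%. In BMSC-like cells 14 rose and 8 fell against 25.9% and 26.3%, in endothelial-like cells 15 rose and 6 fell against 18.9% and 17.1%, and in smooth muscle-like cells 19 rose and 0 fell against 13.3% and 12.3%. The share of members that rose was above the share of all genes in each of the 6 classes, and the share that fell was below it in each, narrowly so in osteoblast-like, fibroblast-like and endothelial-like cells. The 36 genes were chosen with earlier results of these data known, so this comparison is a description and carries no test. The median log2 fold change of the 36 genes was 0.28, 0.15, 0.07, 0.07, 0.04 and 0.59 in that order of classes, and that of all genes lay between -0.03 and 0.01. P4hb, Creb3l1, Kdelr3, Sec61a1, Sec61b, Ssr2 and Ssr3 rose in each of the 6 classes, and Atf6 and Mia3 were called in none. With the matrix-cell RNA taken off, Creb3l1, Sec61a1 and Ssr3 were no longer called in endothelial-like cells. With the preparation number as a replicate block, Creb3l1, Kdelr3, Sec61b and Ssr3 were no longer called in osteoblast-like cells, nor was Ssr3 in fibroblast-like cells.

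Without the normalisation for composition the split moved to 8 higher and 4 lower in chondrocyte-like, 8 and 6 in fibroblast-like, 13 and 13 in BMSC-like and 13 and 10 in endothelial-like cells, because that normalisation adds 0.15, 0.12, 0.19 and 0.12 to the log2 fold changes of these classes. Leaving out Fracture preparation 1 or 2 left 1 gene called higher in chondrocyte-like cells and 0 in osteoblast-like, fibroblast-like, endothelial-like and smooth muscle-like cells, while 10 and 12 were still called higher in BMSC-like cells. With clusters made without integration, 0 were higher and 3 lower in BMSC-like cells. For none of the alternative fits is the share of all genes called given here, so their counts are not set against it. Leaving out Control preparation 1 or 2 left 21 and 17 higher in chondrocyte-like, 14 and 13 in osteoblast-like and 15 and 13 in fibroblast-like cells.

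**Figure D2:**
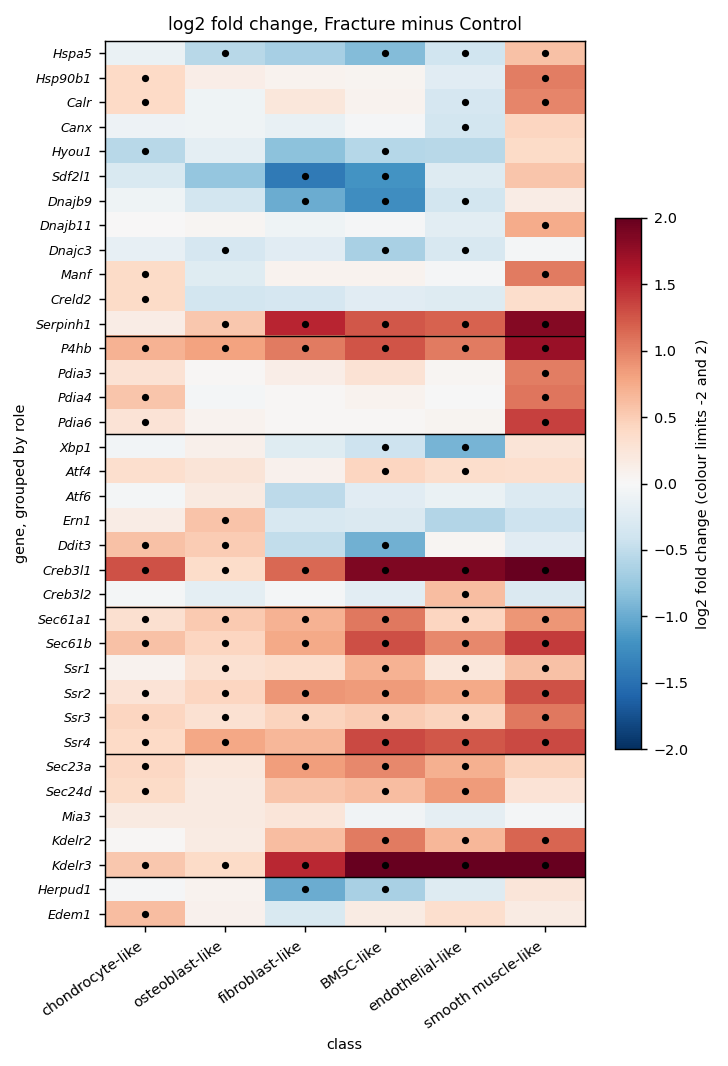
Log2 fold change (colour, Fracture minus Control, limits -2 and 2) of the 36 genes (rows, grouped by role with a line between roles) in the 6 stromal classes (columns). A black dot marks an adjusted p under 0.05, and dots cover P4hb, Creb3l1, Kdelr3, Sec61a1, Sec61b, Ssr2 and Ssr3 in every column.

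The translocon genes rose in most of the classes. In what follows values are those of Control preparations 1 and 2 against Fracture preparations 1 and 2. Its 6 genes encode the channel subunits Sec61a1 and Sec61b and the 4 subunits of the translocon-associated complex, Ssr1 to Ssr4, which helps nascent chains through the channel. All 6 rose in osteoblast-like, BMSC-like, endothelial-like and smooth muscle-like cells, 5 of 6 in chondrocyte-like cells and 4 of 6 in fibroblast-like cells. In that order of classes 9.61%, 25.9%, 18.9%, 13.3%, 19.3% and 9.87% of all genes rose. With the matrix-cell RNA taken off, 3 of the 6 were no longer called in endothelial-like cells, Sec61a1 (log2 fold change 0.25 ± 0.06, adjusted p = 0.0505), Ssr1 (log2 fold change -0.10 ± 0.06, adjusted p = 0.295) and Ssr3 (log2 fold change 0.18 ± 0.06, adjusted p = 0.106). The same held for Ssr1 in smooth muscle-like cells (log2 fold change 0.43 ± 0.18, adjusted p = 0.146) and Ssr3 in fibroblast-like cells (log2 fold change 0.41 ± 0.11, adjusted p = 0.0608). With plain library sizes Sec61a1, Ssr2 and Ssr4 were not called in chondrocyte-like cells, at log2 fold changes of 0.17, 0.12 and 0.25, and Ssr3 was not in fibroblast-like cells, at 0.33. Ssr4 in osteoblast-like cells stood at 911 and 778 against 1552 and 1466 CPM (log2 fold change 0.77 ± 0.09, adjusted p = 0.0127), with no overlap. In chondrocyte-like cells it stood at 1152 and 1059.7 against 1334 and 1291 CPM (log2 fold change 0.40 ± 0.07, adjusted p = 0.0164). The groups were apart in fibroblast-like cells too, at 616 and 467 against 823 and 761 CPM, but the change did not pass the test there (log2 fold change 0.66 ± 0.18, adjusted p = 0.0669). Sec61b, the other channel subunit, stood at 723 and 674 against 894 and 984 CPM in chondrocyte-like cells (log2 fold change 0.58 ± 0.08, adjusted p = 0.0104). Osteoblast-like cells had 899 and 767 against 1148 and 1202 CPM (log2 fold change 0.43 ± 0.10, adjusted p = 0.0482). Fibroblast-like cells had 474 and 430.0 against 672 and 735 CPM (log2 fold change 0.75 ± 0.13, adjusted p = 0.0253). All 3 classes had their Fracture values above their Control values. Sec61a1, the pore of the channel, stood at 145 and 128 against 154 and 154 CPM in chondrocyte-like cells (log2 fold change 0.33 ± 0.07, adjusted p = 0.0275). It rose in osteoblast-like cells (191 and 167 against 274 and 265 CPM, log2 fold change 0.52 ± 0.07, adjusted p = 0.0181) and in fibroblast-like cells (128 and 108 against 176 and 181 CPM, log2 fold change 0.70 ± 0.14, adjusted p = 0.0307).

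The remaining translocon genes encode subunits of the associated complex. Ssr2 stood at 487 and 456 against 531 and 496 CPM in chondrocyte-like cells (log2 fold change 0.27 ± 0.06, adjusted p = 0.0287). It stood at 399.7 and 361 against 570.1 and 503 CPM in osteoblast-like cells (log2 fold change 0.43 ± 0.07, adjusted p = 0.0288) and at 205 and 206 against 364 and 338 CPM in fibroblast-like cells (log2 fold change 0.89 ± 0.11, adjusted p = 0.0123). In all 3 classes its groups lay apart. Ssr3 stood at 310.1 and 301 against 367 and 374 CPM in chondrocyte-like cells (log2 fold change 0.43 ± 0.05, adjusted p = 0.00657). Its osteoblast-like values were 399 and 389 against 516 and 510.3 CPM (log2 fold change 0.31 ± 0.06, adjusted p = 0.0377). Its fibroblast-like values were 257 and 272 against 327 and 337 CPM (log2 fold change 0.44 ± 0.11, adjusted p = 0.0458). These groups lay apart as well. Ssr1 was the exception in chondrocyte-like cells, at 378 and 348 CPM in Control and 345 and 338 CPM in Fracture (log2 fold change 0.06 ± 0.06, adjusted p = 0.418), lower in Fracture by its plain level and slightly higher after normalisation. The summed translocon level was 3195 and 2966 against 3625 and 3636 CPM in chondrocyte-like cells and 3128 and 2769 against 4485 and 4348 CPM in osteoblast-like cells.

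P4hb, the disulfide isomerase that also serves as a subunit of the collagen prolyl hydroxylases, rose in all 6 classes. Its level was 529.9 and 485 against 722 and 752 CPM in chondrocyte-like cells (log2 fold change 0.69 ± 0.07, adjusted p = 0.00498) and 339 and 338 against 613 and 622 CPM in osteoblast-like cells (log2 fold change 0.80 ± 0.07, adjusted p = 0.00832). Fibroblast-like cells stood at 337 and 324 against 631 and 630.1 CPM (log2 fold change 1.05 ± 0.11, adjusted p = 0.00952). No Fracture preparation overlapped a Control preparation in these 3 classes. The other 3 isomerases, Pdia3, Pdia4 and Pdia6, which form and rearrange disulfide bonds of many clients, did not follow it everywhere. In osteoblast-like cells their log2 fold changes were 0.02, -0.04 and 0.07 and in fibroblast-like cells 0.13, 0.02 and 0.03, none of them past the test. In chondrocyte-like cells Pdia4 rose (121 and 102 against 152 and 144 CPM, log2 fold change 0.56 ± 0.09, adjusted p = 0.0139) and Pdia6 rose after normalisation with plain levels that overlapped, 651 and 598 against 706 and 648 CPM (log2 fold change 0.27 ± 0.07, adjusted p = 0.0443). Pdia3 stood at 455 and 405 against 495 and 446 CPM (log2 fold change 0.28 ± 0.08, adjusted p = 0.0554). In smooth muscle-like cells, where 13.3% of all genes rose, all 4 rose, among them Pdia6 (155 and 157 against 391 and 396 CPM, log2 fold change 1.36 ± 0.12, adjusted p = 0.00407).

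Serpinh1, the collagen-specific chaperone, held the most UMIs of the 36 genes in every preparation of chondrocyte-like, osteoblast-like and smooth muscle-like cells (the libraries count 3′ ends, so UMIs do not grow with transcript length). It rose in 5 classes and not in chondrocyte-like cells, where its level was 2949.9 and 2524 against 2779.9 and 2701 CPM with overlapping groups (log2 fold change 0.15 ± 0.10, adjusted p = 0.303). Osteoblast-like cells had 3254 and 2920.2 against 4835 and 4627 CPM (log2 fold change 0.55 ± 0.10, adjusted p = 0.0346). Fibroblast-like cells had 1008 and 769 against 2446 and 2303 CPM (log2 fold change 1.53 ± 0.20, adjusted p = 0.0133). The Fracture groups lay apart from Control in both. Smooth muscle-like cells stood at 742 and 606 against 2372 and 2332 CPM (log2 fold change 1.83 ± 0.16, adjusted p = 0.00439), and BMSC-like cells stood at 1556 and 1259 against 2997 and 2821 CPM (log2 fold change 1.24 ± 0.16, adjusted p = 0.00480).

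**Figure D3:**
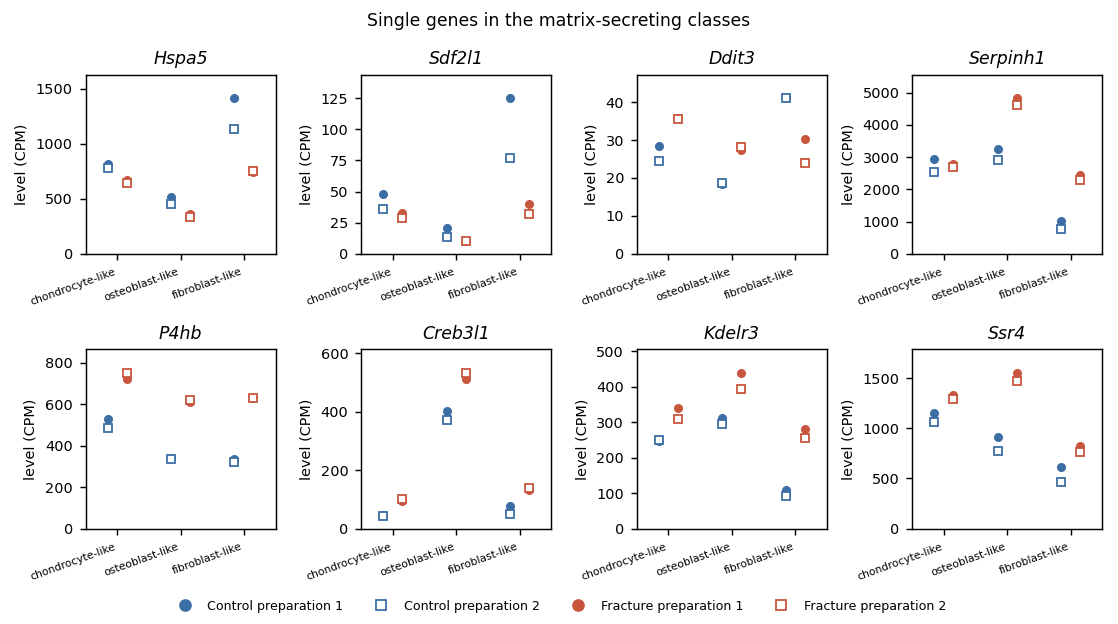
Level in CPM (vertical axis, from 0) of 8 of the genes in chondrocyte-like, osteoblast-like and fibroblast-like cells (horizontal axis), with 1 point per preparation. Hspa5 and Sdf2l1 lie lower in Fracture in all 3 classes, P4hb, Creb3l1, Kdelr3 and Ssr4 lie higher in all 3, and Ddit3 is higher in 2 and lower in fibroblast-like cells.

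Hspa5 (BiP) did not rise with them outside smooth muscle-like cells. It is the central ER chaperone and the standard readout of the unfolded protein response, and stood at 518 and 457 against 364 and 331 CPM in osteoblast-like cells, where it fell (log2 fold change -0.56 ± 0.07, adjusted p = 0.0166). In chondrocyte-like cells it stood at 814 and 783 against 668 and 642 CPM (log2 fold change -0.13 ± 0.05, adjusted p = 0.125) and in fibroblast-like cells at 1418 and 1139 against 747 and 754 CPM (log2 fold change -0.66 ± 0.17, adjusted p = 0.0537). Both Fracture preparations were below both Control preparations in all 3 classes, and the change passed the test in osteoblast-like cells. It fell further in BMSC-like cells, 1604 and 1594 against 803 and 729.6 CPM (log2 fold change -0.87 ± 0.10, adjusted p = 0.00403), and in endothelial-like cells, 698 and 701 against 515 and 459.6 CPM (log2 fold change -0.40 ± 0.08, adjusted p = 0.0230). Smooth muscle-like cells went the other way, 416 and 384 against 596 and 588 CPM (log2 fold change 0.59 ± 0.12, adjusted p = 0.0250).

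Dnajb9 (ERdj4), Dnajc3 (p58IPK) and Sdf2l1 also had falls that passed the test, Dnajc3 alone in the same classes as Hspa5. Dnajc3 fell in osteoblast-like cells, 206 and 201 against 173 and 163 CPM (log2 fold change -0.34 ± 0.06, adjusted p = 0.0272), as well as in BMSC-like and endothelial-like cells. Sdf2l1, a stress-induced partner of BiP, fell in fibroblast-like cells, 125 and 77.0 against 39.7 and 31.7 CPM (log2 fold change -1.41 ± 0.28, adjusted p = 0.0303), and in BMSC-like cells, 119 and 101.5 against 44.7 and 39.6 CPM (log2 fold change -1.19 ± 0.11, adjusted p = 0.00262). Its osteoblast-like values were 20.4 and 13.8 against 10.4 and 10.6 CPM and did not pass the test (log2 fold change -0.77 ± 0.19, adjusted p = 0.0549). Dnajb9 fell in fibroblast-like cells, 130.4 and 86.8 against 50.9 and 51.3 CPM (log2 fold change -0.99 ± 0.22, adjusted p = 0.0414), in BMSC-like cells by 1.24 on the log2 scale and in endothelial-like cells by 0.37. Hyou1 (GRP170), a large chaperone that loads BiP, was the 1 member that fell in chondrocyte-like cells, 19.7 and 17.3 against 11.6 and 11.2 CPM (log2 fold change -0.55 ± 0.08, adjusted p = 0.0126), and it also fell in BMSC-like cells. Of Hspa5, Dnajb9, Dnajc3, Sdf2l1 and Hyou1, none rose in any class apart from Hspa5 in smooth muscle-like cells, where 9.61% to 25.9% of all genes rose by class. These genes were picked from the 12 chaperones after their values were seen. Of the rest, Hsp90b1, Calr, Manf, Creld2, Dnajb11 and Serpinh1 each rose in at least 1 class.

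The lectin chaperones and other abundant chaperones included genes called in chondrocyte-like and not in osteoblast-like cells. Hsp90b1 (GRP94) rose in chondrocyte-like cells, 679 and 613 against 786 and 754 CPM (log2 fold change 0.41 ± 0.07, adjusted p = 0.0154), while its osteoblast-like values of 404 and 389 against 481 and 437 CPM did not pass the test (log2 fold change 0.14 ± 0.06, adjusted p = 0.187). The edgeR test of the difference between these classes did not pass for Hsp90b1 (0.27 ± 0.11, adjusted p = 0.111). Calr (calreticulin), which folds glycoproteins, rose in chondrocyte-like cells, 846 and 775 against 977 and 949 CPM (log2 fold change 0.40 ± 0.07, adjusted p = 0.0144), and its groups overlapped in osteoblast-like cells at 429 and 433 against 446 and 406 CPM (log2 fold change -0.09 ± 0.07, adjusted p = 0.400). Manf, a secreted protein released under ER stress, rose in chondrocyte-like cells, 397 and 362 against 462 and 431 CPM (log2 fold change 0.39 ± 0.07, adjusted p = 0.0156), and stood at 398 and 318 against 337 and 296 CPM in osteoblast-like cells (log2 fold change -0.25 ± 0.11, adjusted p = 0.180). With plain library sizes none of these 3 passed the test in chondrocyte-like cells, at log2 fold changes of 0.25 for Hsp90b1, 0.25 for Calr and 0.23 for Manf. Creld2, another stress-induced secreted chaperone, rose in chondrocyte-like cells (66.4 and 60.1 against 76.0 and 72.1 CPM, log2 fold change 0.38 ± 0.06, adjusted p = 0.0161), and in smooth muscle-like cells it had a similar log2 fold change that did not pass the test (log2 fold change 0.35 ± 0.20, adjusted p = 0.255). With plain library sizes 8 members were called higher in chondrocyte-like cells in place of 18, and whether Creld2 was among the 8 is not given here. Canx (calnexin) was called only in endothelial-like cells, where it fell, and Dnajb11 (ERdj3) only in smooth muscle-like cells, where it rose. In endothelial-like cells Calr fell (779 and 869.8 against 614 and 583 CPM, log2 fold change -0.34 ± 0.09, adjusted p = 0.0444).

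Of the 7 sensors and transcription factors, Creb3l1 (OASIS), the ER-bound factor needed for collagen output in bone, rose in all 6 classes. Its endothelial-like call was lost with the matrix-cell RNA taken off (log2 fold change 0.70 ± 0.45, adjusted p = 0.297), and in BMSC-like cells its log2 fold change was -0.50 with clusters made without integration. It stood at 47.6 and 42.9 against 95.4 and 102 CPM in chondrocyte-like cells (log2 fold change 1.28 ± 0.08, adjusted p = 0.00199). Osteoblast-like cells had its highest level, at 402 and 373 against 512 and 534 CPM, and rose by less (log2 fold change 0.36 ± 0.07, adjusted p = 0.0393). Fibroblast-like cells stood at 78.5 and 51.6 against 132 and 139.7 CPM (log2 fold change 1.16 ± 0.23, adjusted p = 0.0307). No groups overlapped, and the chondrocyte-like Fracture values were still under the osteoblast-like Control values. Its relative Creb3l2 (BBF2H7), which drives secretion in cartilage, stood at 164 and 149.7 against 137 and 139 CPM in chondrocyte-like cells (log2 fold change -0.04 ± 0.06, adjusted p = 0.670) and rose in endothelial-like cells.

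The branches of the unfolded protein response were read from their factors. Xbp1, the factor downstream of IRE1, stood at 172 and 157 against 145 and 141 CPM in chondrocyte-like cells (log2 fold change -0.05 ± 0.06, adjusted p = 0.507) and at 259 and 214 against 269 and 261 CPM in osteoblast-like cells (log2 fold change 0.10 ± 0.09, adjusted p = 0.499), neither past the test. It fell in BMSC-like cells, 272 and 244 against 173 and 167 CPM (log2 fold change -0.41 ± 0.08, adjusted p = 0.0138), and in endothelial-like cells, 388 and 456 against 202 and 206 CPM (log2 fold change -0.93 ± 0.10, adjusted p = 0.00774). Gene counts do not separate the spliced from the unspliced form of Xbp1, so its activity is not measured. Ern1 itself was scarce, at 7.87 and 6.62 against 11.8 and 10.8 CPM in osteoblast-like cells, where it rose (log2 fold change 0.57 ± 0.11, adjusted p = 0.0374). On the PERK branch, Ddit3 (CHOP) rose in chondrocyte-like cells, 28.4 and 24.6 against 35.9 and 35.4 CPM (log2 fold change 0.58 ± 0.08, adjusted p = 0.0108), and in osteoblast-like cells, 18.4 and 18.6 against 27.3 and 28.1 CPM (log2 fold change 0.51 ± 0.09, adjusted p = 0.0278). It fell in BMSC-like cells, 47.3 and 45.0 against 20.6 and 21.0 CPM (log2 fold change -0.96 ± 0.09, adjusted p = 0.00256), and in fibroblast-like cells stood at 41.1 and 41.1 against 30.4 and 24.0 CPM (log2 fold change -0.49 ± 0.16, adjusted p = 0.0927). Atf4, which is controlled largely at translation, was higher after normalisation in every class and passed the test in BMSC-like (log2 fold change 0.43 ± 0.08, adjusted p = 0.0117) and endothelial-like cells (log2 fold change 0.35 ± 0.10, adjusted p = 0.0495). Both calls were lost with plain library sizes, at log2 fold changes of 0.24 and 0.23, and the endothelial-like one also with the matrix-cell RNA taken off (log2 fold change 0.23 ± 0.09, adjusted p = 0.142). In osteoblast-like cells its values were 228 and 194 against 280.1 and 252 CPM (log2 fold change 0.26 ± 0.08, adjusted p = 0.0965). Atf6 ranged from 17.6 to 58.0 CPM over all classes and preparations and was called in none.

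Among the genes of ER exit and retrieval, Kdelr3, a receptor that returns escaped ER proteins from the Golgi, rose in all 6 classes (endothelial-like cells 15.2 and 10.8 against 88.4 and 77.4 CPM, log2 fold change 2.79 ± 0.19, adjusted p = 0.00543). Most of its Fracture level in endothelial-like cells would be carried matrix-cell RNA. With that RNA taken off, its log2 fold change in these cells was 2.34 ± 0.20 (adjusted p = 0.0123). It stood at 247 and 250.1 against 340.3 and 311 CPM in chondrocyte-like cells (log2 fold change 0.54 ± 0.06, adjusted p = 0.00636), 312 and 295 against 439.9 and 395 CPM in osteoblast-like cells (log2 fold change 0.39 ± 0.06, adjusted p = 0.0262) and 110.3 and 92.0 against 279.9 and 255 CPM in fibroblast-like cells (log2 fold change 1.51 ± 0.15, adjusted p = 0.00813). None of these groups overlapped. In BMSC-like cells it stood at 84.3 and 64.2 against 278 and 254 CPM (log2 fold change 2.03 ± 0.15, adjusted p = 0.00177). Kdelr2, a receptor of the same family, rose in BMSC-like, endothelial-like and smooth muscle-like cells, and in chondrocyte-like cells stood at 693 and 611 against 601 and 592 CPM (log2 fold change 0.02 ± 0.07, adjusted p = 0.823). Its endothelial-like call was lost with the matrix-cell RNA taken off (log2 fold change 0.21 ± 0.07, adjusted p = 0.101), and in BMSC-like cells its log2 fold change was -0.57 with clusters made without integration. The COPII coat genes Sec23a and Sec24d, whose loss impairs collagen export, rose in chondrocyte-like, BMSC-like and endothelial-like cells. With the matrix-cell RNA taken off, neither was called in endothelial-like cells (log2 fold change 0.27 ± 0.12, adjusted p = 0.162 for Sec23a, and log2 fold change 0.42 ± 0.13, adjusted p = 0.0786 for Sec24d). In chondrocyte-like cells Sec23a stood at 89.9 and 79.8 against 102 and 101.5 CPM (log2 fold change 0.42 ± 0.07, adjusted p = 0.0144) and Sec24d at 90.1 and 75.8 against 96.5 and 97.3 CPM (log2 fold change 0.38 ± 0.09, adjusted p = 0.0354). Plain library sizes left 8 of 18 calls of a rise in this class, and whether these 2 were among them is not given here. In fibroblast-like cells Sec23a rose (62.7 and 54.8 against 99.99 and 95.5 CPM, log2 fold change 0.84 ± 0.13, adjusted p = 0.0182) and Sec24d did not pass the test (log2 fold change 0.56 ± 0.18, adjusted p = 0.0937). Mia3 (TANGO1), the receptor that loads collagen at exit sites, was called in no class, with 113 and 104 against 108 and 114 CPM in chondrocyte-like cells (log2 fold change 0.18 ± 0.06, adjusted p = 0.0914) and 154 and 158 against 184 and 190.1 CPM in osteoblast-like cells (log2 fold change 0.19 ± 0.08, adjusted p = 0.160).

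The degradation genes were Herpud1, which assembles the export channel for misfolded proteins, and Edem1, which hands them over. Herpud1, the carrier of the second element printed above, fell in fibroblast-like cells, 345 and 244 against 136 and 137 CPM (log2 fold change -0.9996 ± 0.20, adjusted p = 0.0328), and in BMSC-like cells, 174 and 138 against 86.5 and 88.1 CPM (log2 fold change -0.64 ± 0.12, adjusted p = 0.0127). In chondrocyte-like cells it stood at 197 and 172 against 167 and 161 CPM (log2 fold change -0.02 ± 0.07, adjusted p = 0.846). Edem1 was called in chondrocyte-like cells and no other class, and rose there, 49.0 and 39.4 against 60.8 and 60.7 CPM (log2 fold change 0.61 ± 0.11, adjusted p = 0.0186). Plain library sizes left 8 of 18 calls of a rise in this class, and whether Edem1 was among them is not given here.

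Ratios between genes of the same cells do not depend on the normalisation. The UMIs of the 6 translocon genes over those of Hspa5 were 3.92 and 3.79 in the Control and 5.43 and 5.66 in the Fracture preparations of chondrocyte-like cells. In osteoblast-like cells this ratio was 6.04 and 6.06 against 12.3 and 13.1, and in fibroblast-like cells 1.35 and 1.51 against 3.54 and 3.48. It was higher in Fracture without overlap in BMSC-like cells (1.18 and 1.07 against 3.94 and 4.30), endothelial-like cells (1.71 and 1.603 against 3.58 and 3.95) and smooth muscle-like cells (2.39 and 2.25 against 3.32 and 3.65) as well. P4hb over Hspa5 was 0.651 and 0.619 against 1.08 and 1.17 in chondrocyte-like and 0.654 and 0.739 against 1.68 and 1.88 in osteoblast-like cells. These ratios were chosen after the values were seen and carry no test.

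Whether matrix-secreting classes responded differently from the others was tested by the difference of the mean fracture effect of chondrocyte-like, osteoblast-like and fibroblast-like cells from that of BMSC-like, endothelial-like and smooth muscle-like cells. The fit took the preparation as a block over the 24 sums of class and preparation. Its p-values measure how classes vary within the 4 preparations, which may be technical, and are not comparable with those of single classes. The difference passed the test for 20 of the 36 genes, 16 with a lower log2 fold change in the matrix-secreting classes and 4 with a higher one, where 15.0% and 15.3% of 17052 genes were called. The 16 included Kdelr3 (-1.66 ± 0.09, adjusted p = 3.75e-09), Creb3l1 (-0.96 ± 0.11, adjusted p = 3.61e-06), Serpinh1 (-0.65 ± 0.08, adjusted p = 8.48e-06), Kdelr2 (-0.66 ± 0.07, adjusted p = 2.82e-06) and all 6 translocon genes. With the matrix-cell RNA taken off, the difference no longer passed for Sec61a1 (-0.17), Ssr1 (-0.08), Ssr2 (-0.26) and Ssr3 (-0.14), nor for Hspa5 (-0.15) and Manf (-0.14). The 4 were Ddit3 (0.59 ± 0.10, adjusted p = 2.84e-04), Ern1 (0.59 ± 0.15, adjusted p = 0.00475), Xbp1 (0.32 ± 0.08, adjusted p = 0.00438) and Mia3 (0.32 ± 0.06, adjusted p = 4.48e-04). The Control level of Kdelr3 was lower outside the matrix-secreting classes, at 15.2 and 10.8 CPM in endothelial-like and 30.9 and 19.8 CPM in smooth muscle-like cells, against 247 and 250.1 CPM in chondrocyte-like cells. With the matrix-cell RNA taken off, 15 genes differed, 10 lower and 5 higher. When clusters were made without integration, the differences of Manf, Pdia6, Sec61a1 and Ssr1 reversed and 10 genes differed. Without Fracture preparation 1 or 2 the count was 10 and 9.

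The counts moved most in endothelial-like cells when that RNA was taken off. In Fracture endothelial-like cells Kdelr3 stood at 88.4 and 77.4 CPM, of which 73.7 and 65.7 CPM would be carried RNA, and Creb3l1 stood at 52.2 and 44.9 CPM, of which 39.5 and 39.3 CPM would be. Without it 7 members rose and 10 fell there, in place of 15 and 6. Those no longer called were Atf4, Creb3l1, Sec61a1, Ssr1, Ssr3, Sec23a, Sec24d and Kdelr2, while Kdelr3 (log2 fold change 2.34 ± 0.20, adjusted p = 0.0123), Serpinh1 (log2 fold change 0.83 ± 0.07, adjusted p = 0.0123) and P4hb (log2 fold change 0.67 ± 0.06, adjusted p = 0.0128) still were. These 3 genes also stood higher in Fracture in erythroid-like cells, with no RNA taken off. Kdelr3 stood there at 8.44 and 3.27 against 92.4 and 41.3 CPM and Serpinh1 at 107 and 26.8 against 868 and 394 CPM. P4hb stood at 110 and 80.6 against 204 and 153 CPM. Whether carried RNA remained in the endothelial-like values was not tested. The 7 chondrocyte markers summed to 1956 and 851 CPM in Control and to 12581 and 12633 CPM in Fracture endothelial-like cells, and all 7 were higher in both Fracture preparations, as were 30.5% of the genes tested. In BMSC-like cells 14 rose and 9 fell after the same step, in fibroblast-like cells 8 and 3, and in smooth muscle-like cells 18 and 0. The share of all genes called is not given here for any of the counts with that RNA taken off, so they are not set against it.

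**Figure D4:**
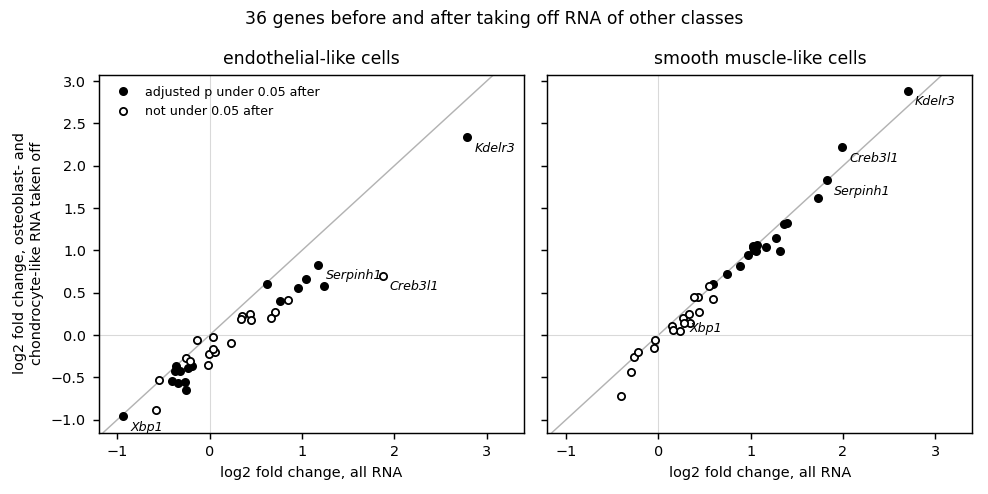
Log2 fold change of the 36 genes as measured (horizontal axis) and after RNA like that of osteoblast-like and chondrocyte-like cells was taken off (vertical axis), in endothelial-like (left) and smooth muscle-like cells (right), with filled points for an adjusted p under 0.05 afterwards. Most points of endothelial-like cells fall below the diagonal, and those of smooth muscle-like cells lie nearer to it.

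Smooth muscle-like cells, of which there were 739 and 210 in Control and 170 and 172 in Fracture, differed between the groups in more than these genes. Their own 6 markers summed to 38013 and 37603 CPM in Control and 18979 and 19999 CPM in Fracture, and none of the 6 was higher in both Fracture preparations. The median share of mitochondrial UMIs was 6.86% and 5.38% against 2.88% and 2.94%, the 5 erythroid markers summed to 47.3 and 98.9 against 3698 and 3743 CPM, and the 7 chondrocyte markers to 747 and 118 against 7471 and 4659 CPM. All 7 were higher in both Fracture preparations, as were 33.0% of the genes tested. The part of these in the change of the 36 genes was not tested.

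Chondrocyte-like and osteoblast-like cells were compared directly by the same kind of test. The log2 fold change of 8 genes was higher in chondrocyte-like than in osteoblast-like cells and that of 3 was lower, where 11.4% and 9.93% of all genes were called. Creb3l1 (0.93 ± 0.14, adjusted p = 1.23e-04), Creld2 (0.75 ± 0.10, adjusted p = 4.05e-05), Manf (0.63 ± 0.11, adjusted p = 3.37e-04), Pdia4 (0.60 ± 0.11, adjusted p = 6.89e-04) and Edem1 (0.53 ± 0.08, adjusted p = 1.56e-04) were among the 8. Calr (0.49 ± 0.11, adjusted p = 0.00364), Sdf2l1 (0.46 ± 0.16, adjusted p = 0.0436) and Hspa5 (0.42 ± 0.11, adjusted p = 0.0124) made up the rest of the 8, the last 2 with values below 0 in both classes. Ern1 (-0.41 ± 0.14, adjusted p = 0.0439), Serpinh1 (-0.39 ± 0.14, adjusted p = 0.0489) and Ssr4 (-0.37 ± 0.10, adjusted p = 0.0146) had the higher log2 fold change in osteoblast-like cells. In all 11 genes were called, against 3 without Fracture preparation 1 or 2, and without Control preparation 2 the count was 17.

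A wider list of 86 genes of the same pathways also held more genes that rose than fell. In chondrocyte-like cells 38 of 86 tested rose and 5 fell, in osteoblast-like cells 28 of 84 rose and 3 fell, and in fibroblast-like cells 29 of 85 rose and 0 fell, with median log2 fold changes of 0.21, 0.24 and 0.22. Of all genes 19.3% rose and 18.0% fell in chondrocyte-like, 9.61% and 6.52% in osteoblast-like, and 9.87% and 9.72% in fibroblast-like cells. The normalisation for composition raises the log2 fold changes of chondrocyte-like and fibroblast-like cells, and no count with plain library sizes is given here for this list. The list was also chosen with earlier results of these data known. Of the procollagen hydroxylases, 7 of 8 rose in chondrocyte-like cells, 5 of 8 rose and 1 fell in osteoblast-like cells, and 7 of 8 rose in fibroblast-like cells. Plod1, a lysyl hydroxylase of collagen, rose in chondrocyte-like cells (60.9 and 67.1 against 153 and 151 CPM, log2 fold change 1.400 ± 0.07, adjusted p = 0.00166) and in fibroblast-like cells (75.4 and 55.5 against 185 and 183 CPM, log2 fold change 1.59 ± 0.19, adjusted p = 0.0107). P4ha2, a catalytic subunit that pairs with P4hb, rose in osteoblast-like cells (98.3 and 95.3 against 217 and 213 CPM, log2 fold change 1.08 ± 0.06, adjusted p = 0.00358), and P4ha3 rose in fibroblast-like cells (22.9 and 14.4 against 95.4 and 95.4 CPM, log2 fold change 2.42 ± 0.23, adjusted p = 0.00757). These changes had no overlap between the groups.

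Proline isomerases of the ER, which help collagen and other chains fold, were among the named genes of this list. Fkbp7 rose in chondrocyte-like cells (83.4 and 72.4 against 253 and 243 CPM, log2 fold change 1.82 ± 0.08, adjusted p = 0.00124) and Fkbp10 in osteoblast-like cells (336 and 365 against 673 and 658 CPM, log2 fold change 0.85 ± 0.09, adjusted p = 0.0105). Fibroblast-like cells raised Fkbp11 (43.3 and 43.7 against 235 and 209 CPM, log2 fold change 2.47 ± 0.12, adjusted p = 0.00336) and Ppic (299 and 233 against 939 and 868 CPM, log2 fold change 1.87 ± 0.18, adjusted p = 0.00758). Of the thiol and proline isomerases and oxidases as a whole, 7 of 14 rose and 3 fell in chondrocyte-like, 6 rose and 1 fell in osteoblast-like, and 8 rose and 0 fell in fibroblast-like cells. Over all genes 19.3% rose and 18.0% fell in the first of these classes, 9.61% and 6.52% in the second, and 9.87% and 9.72% in the third. The share that fell in chondrocyte-like cells was near that of all genes.

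Of the stress signalling genes and their targets, 6 of 11 rose in chondrocyte-like cells, 4 of 10 in osteoblast-like cells and 1 of 11 in fibroblast-like cells, where 19.3%, 9.61% and 9.87% of all genes rose. In each of these classes 0 of them fell, and the difference between the classes was not tested. Asns, the asparagine synthetase that ATF4 induces, rose in chondrocyte-like cells (24.3 and 23.8 against 59.1 and 57.7 CPM, log2 fold change 1.43 ± 0.05, adjusted p = 0.00113), as did the ER oxidase Ero1l (17.0 and 22.0 against 46.9 and 44.3 CPM, log2 fold change 1.38 ± 0.15, adjusted p = 0.00591). In osteoblast-like cells Atf3 rose (17.8 and 24.1 against 233 and 236 CPM, log2 fold change 3.41 ± 0.19, adjusted p = 0.00358), as did Ppp1r15a, the phosphatase subunit GADD34 (18.7 and 16.7 against 43.1 and 39.8 CPM, log2 fold change 1.16 ± 0.08, adjusted p = 0.00588). Atf3 is also an early response gene. The 10 early response genes that rise during tissue dissociation (Fos, Jun, Egr1 and others) summed to 1384 and 1392 CPM in Control and 5521 and 5145 CPM in Fracture in osteoblast-like cells, with 9 of 10 higher in both Fracture preparations, as were 38.4% of the genes tested. In BMSC-like cells all 10 were (1774 and 1795 against 3364 and 3277 CPM), against 30.3% of the genes tested there. In chondrocyte-like cells the same list summed to 7414 and 5907 against 6998 and 6753 CPM. Its part in the stress genes was not tested.

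Matrix transcripts were read, without any measure of protein, from 35 genes of collagens, proteoglycans and other matrix proteins. In chondrocyte-like cells they took 225547 and 214354 CPM in Control and 249456 and 244690.0 CPM in Fracture. In osteoblast-like cells they took 418074 and 431085 CPM in Control and 371250.0 and 387155 CPM in Fracture, a lower sum in Fracture, although 23 of the 35 were higher in both Fracture preparations, as were 38.4% of the genes tested. Without the 50 most abundant genes of the class, the log2 ratio of the sum of the 36 genes in osteoblast-like cells went from 0.40 to 0.24. Matrix transcripts stood higher in Fracture in fibroblast-like cells (141948 and 108783 against 176001 and 169546 CPM) and BMSC-like cells (54178 and 40537 against 113131 and 107356 CPM). Over the 24 combinations of class and preparation, which share libraries and a common total, the log2 level of the 36 genes and that of the matrix genes had a Pearson correlation of 0.78 (Spearman 0.70). By role, the Pearson correlation with matrix genes was 0.95 for exit and retrieval, 0.91 for the translocon and 0.63 for the chaperones. It was 0.56 for sensors and transcription factors, 0.44 for degradation and 0.32 for the disulfide isomerases. These sums include the matrix-cell RNA found in the other classes, and no correlation with it taken off is given here. In endothelial-like cells the matrix genes summed to 19360 and 15318 against 64893 and 61877 CPM. In smooth muscle-like cells they summed to 30113 and 18408 against 92420 and 75518 CPM.

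At a finer resolution of 26 clusters, 15 stromal clusters held at least 20 cells in every preparation. The summed level of the 36 genes was higher in both Fracture preparations in 14 of the 15 and lower in 1, the endothelial-like cluster led by Dnase1l3, Stab2 and Aplnr (8539 and 8444 against 7803 and 7357 CPM). The 6 clusters whose cells fell mostly in the chondrocyte-like class spanned a wide range, and 2 of them, those led by Col10a1 and by Chi3l1, were not named by their own markers, of which they held 1 of 7 and 2 of 7. The lowest was led by Col10a1, Pank1 and Spp1, the first of them the collagen of hypertrophic cartilage, at 7379 and 5956 CPM in Control and 7980.2 and 7623 CPM in Fracture. The highest was led by C1qtnf3, Car8 and Chrdl2, at 18129 and 16828 CPM against 19381 and 19039 CPM. The gap between these clusters was wider than the change with fracture in either of them.

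**Figure D5:**
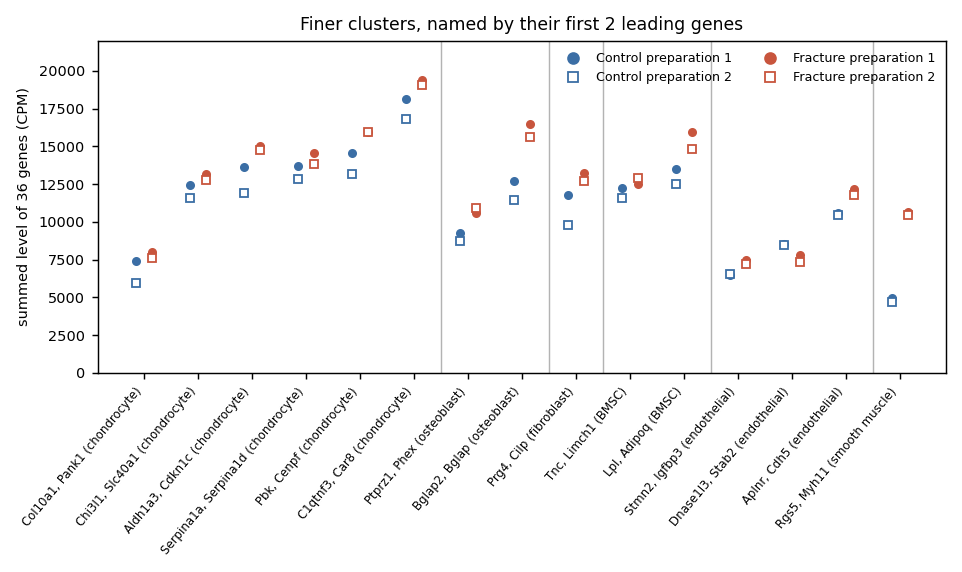
Summed level of the 36 genes in CPM (vertical axis) in 15 finer stromal clusters (horizontal axis), each labelled by its first leading genes with the class that held most of its cells in brackets, with 1 point per preparation. Among clusters mostly of chondrocyte-like cells the Col10a1 cluster is lowest and the C1qtnf3 cluster highest, and of the 15 clusters only the Dnase1l3 cluster has both Fracture points below both Control points.

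Of the single genes, P4hb, Creb3l1, Kdelr3 and Hspa5 are described within these clusters, and the other members are not given here. P4hb was higher in both Fracture preparations in all 6 clusters that lay mostly in the chondrocyte-like class, from 278 and 191 against 347 and 362 CPM in the Col10a1 cluster to 688 and 669.8 against 1029.6 and 1084 CPM in the C1qtnf3 cluster. Creb3l1 was likewise higher in each of the 6, for example 32.2 and 29.3 against 45.4 and 44.0 CPM in the cluster led by Serpina1a, Serpina1d and Serpina1b. Kdelr3 was higher in each of the 6 as well. Hspa5 was lower in both Fracture preparations in 5 of the 6 clusters and overlapped in the Col10a1 cluster, at 416 and 258 against 327 and 312 CPM.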

How the data were processed

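Droplet libraries (10x Chromium 3′ v3) of depleted femoral stromal suspensions, 4 per group, were analysed. Per the labels and the study's methods, the deposited files hold UMI counts per gene and cell barcode, and the processing notes name bcl2fastq 2.19.1.403, UMI-tools 1.0.0, STAR 2.7.3a, featureCounts 1.6.4 and the mm10 genome. How the listed barcodes were selected is not given in the sources used here.

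Cells with 500 to 6000 genes and at most 25% mitochondrial UMIs were kept, as were genes seen in at least 3 cells. Libraries were integrated and clustered in Seurat 5.3.0 (12 components, resolution 0.1, finer 0.5) on 1937 of 2000 variable genes, with a list of 224 genes, the 36 among them, kept out. Clusters were named from marker lists, and Col10a1 and other leading genes describe the finer ones. Doublets were called with scrublet (718 cells, 1.58%) and kept, with their removal as an alternative. The 2 libraries of a preparation were summed, and sums with at least 20 cells in each of the 4 preparations were tested in edgeR 4.0.16 (TMM, quasi-likelihood, filterByExpr, Benjamini-Hochberg over all genes of the class, threshold 0.05). Differences between classes were tested as contrasts in 1 fit over 24 sums with the preparation as a block. Errors are approximate standard errors, the absolute log2 fold change divided by the square root of the quasi-likelihood F statistic. CPM are plain shares of UMIs. The test was checked on simulated counts. Alternatives were DESeq2 1.42.0, other size factors, no filter, cells of at least 3000 UMIs, clusters without integration, libraries as the unit, a replicate block and leaving out each preparation. Taking off osteoblast and chondrocyte RNA was added after the data were seen. Precision is limited by 2 preparations per group.

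The 36 genes and all lists were chosen with earlier results of these data known. The members described most closely are 24 genes: those called in at least 2 classes or by a difference test, and Hspa5, Xbp1, Atf4, Ddit3, Creb3l1, Serpinh1 and Mia3, by largest change. Values of other members were picked for the text after they were seen. From the pathway list at most 4 genes per matrix-secreting class were named, with a mean of at least 20 CPM. Promoter windows came from RefSeq (GRCm38.p6). 1 further promoter stretch is not reported here.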

Additional observations from a re-analysis of the deposited data

Results flagged for a closer look

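The fracture effect differed between classes for the genes given here, each by the test of the difference itself in edgeR (adjusted p under 0.05 over 17052 genes), as a difference of log2 fold changes. Between the matrix-secreting and the other classes, 16 genes had a lower log2 fold change in the matrix-secreting ones, which for a gene that fell can be the larger change. Among chaperones and isomerases these were Hspa5 (-0.19), Sdf2l1 (-0.50), Manf (-0.26), Serpinh1 (-0.65), P4hb (-0.46), Pdia3 (-0.29) and Pdia6 (-0.33). For Hspa5, Manf and Pdia6, smooth muscle-like cells stood apart from BMSC-like and endothelial-like cells, with log2 fold changes of 0.59, 1.04 and 1.36. The factor Creb3l1 differed by -0.96. In the translocon the genes were Sec61a1 (-0.26), Sec61b (-0.60), Ssr1 (-0.24), Ssr2 (-0.41), Ssr3 (-0.24) and Ssr4 (-0.66), and in retrieval Kdelr2 (-0.66) and Kdelr3 (-1.66). Of these 16, Hspa5, Manf, Sec61a1, Ssr1, Ssr2 and Ssr3 no longer passed with the matrix-cell RNA taken off. The differences of Manf, Pdia6, Sec61a1 and Ssr1 reversed with clusters made without integration. A higher log2 fold change was found for Xbp1 (0.32), Ern1 (0.59), Ddit3 (0.59) and Mia3 (0.32).

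Between chondrocyte-like and osteoblast-like cells the log2 fold change was higher in chondrocyte-like cells for Hspa5 (0.42), Calr (0.49), Sdf2l1 (0.46), Manf (0.63), Creld2 (0.75), Pdia4 (0.60), Creb3l1 (0.93) and Edem1 (0.53), and lower for Serpinh1 (-0.39), Ern1 (-0.41) and Ssr4 (-0.37).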

How the results depend on the processing

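Each comparison rests on 2 preparations per group. Over the fits that each left out 1 preparation, the genes called higher ran from 1 to 21 in chondrocyte-like, 0 to 14 in osteoblast-like, 0 to 15 in fibroblast-like, 10 to 16 in BMSC-like, 0 to 16 in endothelial-like and 0 to 20 in smooth muscle-like cells. Those called lower ran from 0 to 3, 0 to 6, 0 to 9, 4 to 9 and 0 to 10 in the first 5 of these, and 0 were lower in smooth muscle-like cells in each of these fits. The genes that differed ran from 9 to 27 for matrix-secreting against other classes and from 3 to 17 for chondrocyte-like against osteoblast-like cells. The lone sample left in a group was assumed to vary like the others.

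With plain library sizes 8 rose and 4 fell in chondrocyte-like cells, 1 fell in osteoblast-like, 6 fell in fibroblast-like, 13 fell in BMSC-like and 10 fell in endothelial-like cells. DESeq2 called 4 lower in osteoblast-like cells, and without the filter on low counts 5 were lower in fibroblast-like cells. With cells of at least 3000 UMIs 2 were lower in chondrocyte-like cells. With libraries as the unit 5 fell in chondrocyte-like, 7 in osteoblast-like, 10 in fibroblast-like and 13 in endothelial-like cells. Without integration 2 fell in chondrocyte-like cells, 4 in osteoblast-like cells and 5 in fibroblast-like cells, 0 were higher and 3 lower in BMSC-like cells, and 10 differed between matrix-secreting and other classes. There the summed log2 ratio in BMSC-like cells was -0.38, Creb3l1 (-0.50) and Kdelr2 (-0.57) reversed in these cells, and the differences of Manf (0.049), Pdia6 (0.0022), Sec61a1 (0.14) and Ssr1 (0.089) reversed. With matrix-cell RNA taken off 7 were higher and 10 lower in endothelial-like cells. The summed log2 ratio was 0.24 in osteoblast-like cells without the 50 most abundant genes, and 0.063 in endothelial-like cells as a mean over cells. The share of all genes called is not given here for any of these fits. The causes were not tested.

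With the preparation number as a replicate block, 4 rose and 1 fell in osteoblast-like cells and 3 fell in endothelial-like cells. Calls lost in osteoblast-like cells included Ddit3, Creb3l1, Serpinh1, Kdelr3, Sec61b and Ssr3. Ssr3 in fibroblast-like, Dnajb9 and Calr in endothelial-like and Hspa5 in smooth muscle-like cells were lost as well. Same-numbered preparations deviated together only weakly, so the numbers were not taken to pair them.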
